A study of Mus musculus with 20 samples.

Results

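The IL-6 family of cytokines signals through receptors that share the chain gp130 (Il6st). Of the 25219 genes in the deposited table, 10 were chosen by symbol, with earlier results of these data known. They are the ligands Il6, Il11, Lif, Osm and Clcf1, the receptor chains Il6ra, Il6st, Lifr and Osmr, and the feedback inhibitor Socs3. RNA was taken from inguinal white fat (iWAT) and brown fat (BAT) of male mice 1 week after recombination, with 5 libraries each of Control iWAT, Ai-α4KO iWAT, Control BAT and Ai-α4KO BAT. Ai-α4KO mice carry floxed alleles of Igbp1, the gene of the phosphatase regulator α4, together with Adiponectin-CreERT2, a recombinase that is active in adipocytes only after tamoxifen. Control mice carry the floxed alleles without the recombinase, are called WT in the labels, and received tamoxifen as well, from 2 months of age. Whether 1 mouse gave both tissues is not stated in the labels, so a p-value measures the spread between these libraries. Values are CPM, the count scaled to the effective size of its library (TMM normalization over all 20 libraries), unless another scale is named.

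Igbp1 was at 67.3 ± 7.01 CPM in Control and 10.8 ± 0.394 in Ai-α4KO iWAT, and at 93.9 ± 7.29 and 17.0 ± 4.83 in BAT (SD, n = 5 each). Because each sample is a piece of whole fat, fewer cells of a type and less RNA per cell cannot be told apart. Adipocyte markers (8 of 8 listed genes measured) summed to 22610 to 30150 CPM in Control and 11600 to 16390 in Ai-α4KO iWAT, and to 22520 to 25050 and 12950 to 15470 in BAT. Macrophage markers (7 of 8 measured) summed to 636 to 1190 CPM in Control and 3056 to 4103 in Ai-α4KO iWAT, and to 187 to 299 and 1480 to 2950 in BAT. Brown adipocyte markers (5 of 5 called lower in iWAT and 3 of 5 in BAT) summed to 7736 to 11920 CPM in Control and 1257 to 2997 in Ai-α4KO BAT, and to 137 to 885 and 10.7 to 23.4 in iWAT. No adipocyte, macrophage or brown adipocyte marker had a mean of 0 in any group. Control iWAT libraries 1 and 4 stood apart with B cell markers at 491 and 196 CPM, against 6.12 to 8.03 in the other Control iWAT libraries. Skeletal muscle markers ran from 885 to 8603 CPM in Control BAT and from 12110 to 42360 in Ai-α4KO BAT. In iWAT they stood apart in Control library 4, at 7210 CPM, and in Ai-α4KO library 1, at 3814, against 5.32 to 181 in the other libraries. Ai-α4KO iWAT library 1 held the least Il6, Lif, Lifr and Il6st of its group, and without both libraries the same number of members, 5, was called higher in iWAT.

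IL-6 binds its own receptor chain, IL-6Rα (Il6ra), and the pair then recruits gp130, which activates the kinase JAK1 and the transcription factor STAT3. LIF uses gp130 with LIFR, mouse OSM uses gp130 mainly with OSMR, IL-11 uses an IL-11 receptor chain and gp130, and CLCF1 acts through the CNTF receptor with LIFR and gp130. SOCS3 is induced by STAT3, binds the activated receptor and ends the signal. In fat, IL-6 can come from adipocytes, macrophages and stromal cells, and OSM is a product mainly of macrophages and neutrophils.

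Il6, Lif, Osm, Osmr and Socs3 rose in Ai-α4KO fat of both tissues, and no member fell. A gene was called when the quasi-likelihood test of edgeR gave an adjusted p under 0.01 and the change was 2-fold or more. In iWAT 5 of the 9 members tested were called higher, where 11.3% of the 14604 genes tested were, and 0 were called lower, where 10.7% were. In BAT 5 of 9 were called higher against 18.2% of the 14344 genes tested, and 0 lower against 13.3%. Il6 in both tissues and Osm in BAT held no more than 9 counts in any Control library. They passed the count filter through the Ai-α4KO libraries and could hardly be called lower. With at least 10 counts in every library 4 members were higher in iWAT, where 1456 of 13284 genes were. In BAT 2 were, where 1977 of 12697 genes were, as that filter drops Il6, Lif and Osm there. The libraries of the genotypes did not overlap for 5 of the 9 members tested in iWAT and 5 of 9 in BAT. Of all genes tested, 39% in iWAT and 47.6% in BAT did not overlap, so the share in BAT was close to that of all genes. The median log2 fold change of the members tested was 1.07 in iWAT and 1.68 in BAT, and over all genes tested it was 0.015 and -0.032. Neither an unadjusted p below 0.05 in edgeR nor the DESeq2 or limma alternatives put any member lower in either tissue. Scaling by library totals alone moved the median of all genes to 0.13 in iWAT and 0.23 in BAT. That scaling still gave 5 members higher in each tissue, but over all genes in BAT it gave 3251 higher and 1265 lower calls in place of 2614 and 1910.

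**Figure D1:**
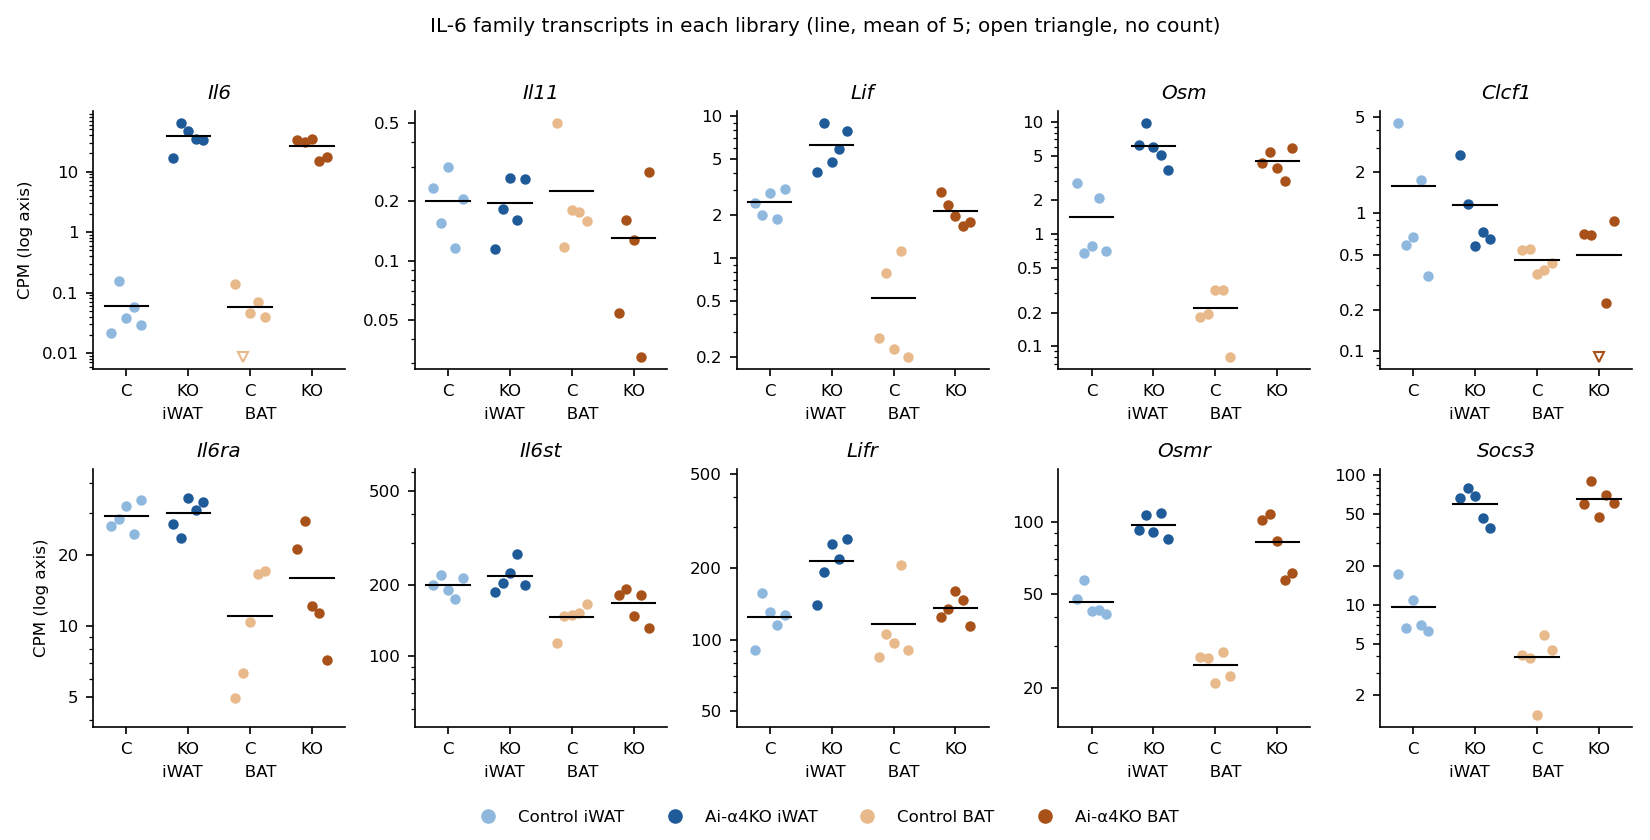
CPM of each member on a log axis, by library (points) with the mean of 5 libraries (line), for Control (C) and Ai-α4KO (KO) of iWAT and BAT; an open triangle marks a library with no count. Il6 separates the genotypes by far the widest, at no more than 0.155 CPM in Control and no less than 14.7 in Ai-α4KO, while Il11, Clcf1, Il6ra, Il6st and Lifr overlap in both tissues.

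Il6 was nearly absent from Control fat and became one of the most abundant family transcripts in Ai-α4KO fat. The Control iWAT libraries 1 to 5 held 1, 5, 1, 2 and 1 counts of Il6, or 0.0212, 0.155, 0.0376, 0.0579 and 0.0293 CPM. The Ai-α4KO iWAT libraries held 16.9, 63.9, 46.5, 34.3 and 33.9 CPM, from 593 to 2802 counts. Each Ai-α4KO library was thus far above each Control library. In BAT the Control libraries held 3, 0, 1, 2 and 1 counts. The Ai-α4KO BAT libraries held 33.4, 31.2, 34.9, 14.7 and 17.6 CPM, with libraries 4 and 5 below the other three libraries and all of them far above Control. Because Control held so few counts, the ratio of pooled rates was taken, at 694 in iWAT (exact 95% interval 377 to 1447) and 467 in BAT (227 to 1163), intervals that cover counting error only. The fitted log2 fold change, which depends on the prior count, was 9.32 in iWAT (standard error 0.52, adjusted p = 1.68e-06, edgeR), ranked 1 of 14604 genes, and 8.71 in BAT (standard error 0.46, adjusted p = 5.83e-08), ranked 2 of 14344. The exact permutation test of log2 CPM gave p = 0.0079 in each tissue, the smallest that 5 against 5 libraries allow. In BAT, skeletal muscle markers too were higher in Ai-α4KO libraries, and with the muscle score as a covariate the Il6 log2 fold change was 10.1; their part in the Il6 level was not tested.

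Il6 lies at chr5:30013161-30019968 on the plus strand of mm10. Its promoter is shown because Il6 had the widest change of the family; the 250 bases before the RefSeq start, at chr5:30012864-30013113 of GRCm38.p6, end 48 bases before the start in the deposited table. Capitals mark matches, on either strand, to AP-1 (TGANTCA), C/EBP (TTGCNNAA) and the NF-kB consensus. None of the 3 overlaps another.
Il6 promoter: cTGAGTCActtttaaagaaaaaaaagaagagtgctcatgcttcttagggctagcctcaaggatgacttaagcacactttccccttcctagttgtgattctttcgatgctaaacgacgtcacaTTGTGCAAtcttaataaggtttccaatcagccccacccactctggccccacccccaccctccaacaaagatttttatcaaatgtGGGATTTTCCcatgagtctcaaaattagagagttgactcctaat
The AP-1 letters stand at -249 to -243, the C/EBP letters on the other strand at -128 to -121, and the NF-kB match at -44 to -35, counted from the start. Of 32851 RefSeq windows of this length, 6.75% held the AP-1 letters, 9.56% the C/EBP letters and 7.25% an NF-kB match, and a match is a description of letters only.

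The genes whose log2 CPM followed Il6 most closely over the 20 libraries were Il1rn, Cxcl1, Irg1, Il1b and Lipn, with Pearson coefficients of 0.99, 0.99, 0.98, 0.98 and 0.98 among 15230 genes compared. Il1rn encodes the antagonist of the IL-1 receptor, Il1b a ligand of it, Cxcl1 a chemokine that attracts neutrophils, and Irg1 the enzyme that makes itaconate in activated macrophages. The 20 libraries come from 4 groups whose means differ, so the coefficients are given as a measure of likeness only, with no test. Il1rn was at 3.60 CPM in Control and 115 in Ai-α4KO iWAT, and at 3.12 and 125 in BAT (means of 5).

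Lif and Osm, which lie next to each other on chromosome 11, rose as well, from different starting levels. Lif, at chr11:4257568-4272514, encodes leukemia inhibitory factor. Its Control iWAT libraries held 2.46, 2.02, 2.89, 1.88 and 3.08 CPM and its Ai-α4KO iWAT libraries 4.06, 8.96, 4.73, 5.89 and 7.88. Control BAT held 0.273, 0.782, 0.227, 1.13 and 0.199 CPM and Ai-α4KO BAT 2.93, 2.38, 1.99, 1.67 and 1.79. All Ai-α4KO libraries were above all Control libraries of their tissue, and Control BAT libraries 2 and 4 were several times above the other Control BAT libraries. The log2 fold change was 1.35 in iWAT (standard error 0.26, adjusted p = 0.00104, edgeR) and 1.98 in BAT (standard error 0.45, adjusted p = 0.00226). The iWAT call ended without Control iWAT libraries 1 and 4, the ones with high B cell markers (1.16, adjusted p = 0.0105, edgeR). The BAT call ended with the muscle score as a covariate (1.94, adjusted p = 0.0423, edgeR), while the estimate hardly moved. Summed muscle markers did not overlap between the genotypes in BAT, at 885 to 8603 CPM in Control and 12110 to 42360 in Ai-α4KO. The parts of muscle and genotype can therefore hardly be told apart in that fit. By limma on log2(FPKM + 1), a scale that understates the change of low genes, Lif stayed below 2-fold in both tissues, at 0.66 in iWAT and 0.41 in BAT.

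Osm, at chr11:4236785-4241026, encodes oncostatin M and is separated from Lif by 16541 bases with 0 genes of the table between them. Control iWAT held 2.88, 0.684, 0.789, 2.08 and 0.703 CPM of Osm, and Ai-α4KO iWAT 6.17, 9.80, 5.96, 5.03 and 3.76. The high Control values are those of libraries 1 and 4, and even these were below every Ai-α4KO library. Control BAT held 0.182, 0.196, 0.317, 0.318 and 0.0796 CPM, from 2 to 9 counts a library, and Ai-α4KO BAT 4.31, 5.35, 3.85, 2.99 and 5.87. The log2 fold change was 2.09 in iWAT (standard error 0.46, adjusted p = 0.00257, edgeR) and 4.29 in BAT (standard error 0.35, adjusted p = 8.55e-07). Without Control iWAT libraries 1 and 4 the iWAT value was 3.0. The B cell and T cell markers of those libraries (T cell markers at 238 and 263 CPM, against 9.76 to 12.5 in the other three Control iWAT libraries) moved with Osm there; their part in the Osm level was not tested.

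The promoter of Lif shares AP-1 and NF-kB letters with that of Il6 and is shown beside it for that reason. It covers chr11:4257318-4257567 of GRCm38.p6, directly before the start, on the plus strand, and capitals mark AP-1 (TGANTCA) and NF-kB matches.
Lif promoter: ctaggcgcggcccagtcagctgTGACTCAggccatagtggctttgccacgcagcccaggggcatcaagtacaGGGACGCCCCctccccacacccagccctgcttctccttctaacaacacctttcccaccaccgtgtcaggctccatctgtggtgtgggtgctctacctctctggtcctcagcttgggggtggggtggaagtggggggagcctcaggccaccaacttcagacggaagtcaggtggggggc
The AP-1 letters stand at -228 to -222 and the NF-kB match at -178 to -169. Promoter windows were found for 8 of the 10 members, all but Osm and Clcf1, with 10 windows in all. In the windows of Il6ra, Il6st, Lifr and Osmr no match to any motif searched was found, and 1 of the Il11 windows held AP-1 letters. CRE letters (TGACGTCA), in 1.55% of all windows, were in none of the members' windows, and neither was the C/EBP form TTGCGNAA, in 0.67%.

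Clcf1 did not pass the test and Il11 was below the count filter. Clcf1 encodes cardiotrophin-like cytokine factor 1. Control iWAT held 4.53, 0.590, 0.676, 1.74 and 0.352 CPM of Clcf1 and Ai-α4KO iWAT 2.66, 1.16, 0.578, 0.734 and 0.648. Within Control the highest values were again those of libraries 1 and 4, while Ai-α4KO iWAT library 1 lay between them. Control BAT held 0.363 to 0.548 CPM with a median of 0.438, and Ai-α4KO BAT 0 to 0.879 with a median of 0.695, so that the genotypes overlapped in both tissues. In iWAT its log2 fold change of -0.47 (adjusted p = 0.592, edgeR) did not pass, nor did that of 0.13 in BAT (adjusted p = 0.865), and the iWAT value became 0.41 without Control iWAT library 1 and 1.02 without libraries 1 and 4. Clcf1 also lies within AC109138.7, an annotated gene of the same strand that is not in the table used here, so its count may include reads of both.

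Il11, which encodes interleukin-11, was removed by the filter on low counts, at 1 to 11 counts a library in all 4 groups. Mean Il11 was 0.202 ± 0.0712 CPM in Control and 0.196 ± 0.0643 in Ai-α4KO iWAT, and 0.227 ± 0.155 and 0.131 ± 0.0988 in BAT (SD, n = 5 each). The genotypes overlapped in each tissue (two-sided exact permutation test, p = 0.905 and p = 0.206), and at 1 to 11 counts only a large difference would be detectable. With no filter on low counts edgeR gave an iWAT log2 fold change of -0.03 (adjusted p = 0.963) and a BAT value of -0.82 (adjusted p = 0.301).

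**Figure D2:**
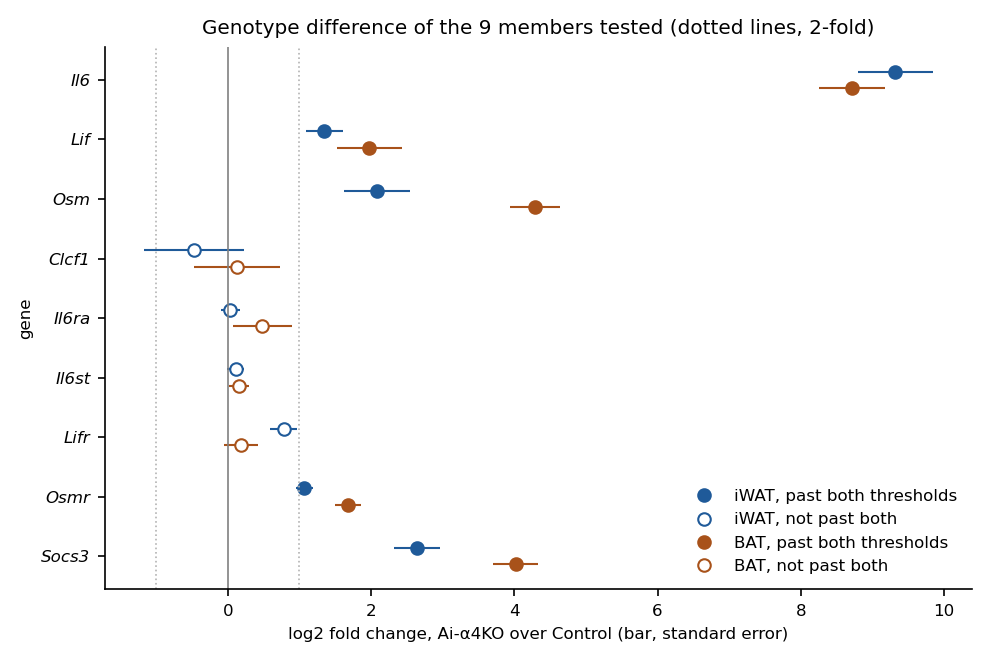
Fitted log2 fold change of Ai-α4KO over Control (point) with its standard error (bar) for the 9 members tested, in iWAT (blue) and BAT (brown); filled points passed an adjusted p below 0.01 and 2-fold (dotted lines). Il6 lies at 9.32 and 8.71, Osm and Socs3 between 2.09 and 4.29, and Clcf1, Il6ra, Il6st and Lifr within the dotted lines.

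Among the receptor chains Osmr was the one that rose in both tissues. OSMR is the signaling chain that pairs with gp130 to bind oncostatin M. Control iWAT held 47.4, 57.2, 42.3, 42.5 and 40.9 CPM of Osmr and Ai-α4KO iWAT 92.5, 107, 91.0, 109 and 85.0. Control BAT held 27.1, 26.7, 21.03, 28.3 and 22.4 CPM and Ai-α4KO BAT 103, 108, 83.1, 57.2 and 61.2. No Control library reached any Ai-α4KO library of its tissue, and Ai-α4KO BAT libraries 4 and 5 were the lowest of theirs. The log2 fold change was 1.07 in iWAT (standard error 0.12, adjusted p = 2.53e-05, edgeR) and 1.68 in BAT (standard error 0.18, adjusted p = 9.05e-06). The iWAT value sits at the 2-fold threshold and fell below it under upper-quartile normalization (0.97), without Control iWAT library 3 (0.99), and without libraries 1 and 4 (0.97).

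Lifr, which binds LIF, is the neighbor of Osmr on chromosome 15, 255258 bases apart with 0 genes of the table between. Control iWAT held 90.9, 157, 131, 116 and 127 CPM of Lifr and Ai-α4KO iWAT 140, 193, 254, 219 and 266, with Control library 2 above Ai-α4KO library 1. Control BAT held 84.5, 106, 96.9, 207 and 90.3 CPM and Ai-α4KO BAT 124, 135, 161, 147 and 114. Library 4 of Control BAT exceeded every other BAT library. In iWAT the log2 fold change of 0.78 passed the adjusted p (standard error 0.19, adjusted p = 0.00462, edgeR) but at 1.71-fold not the fold threshold, and in BAT it was 0.18 (standard error 0.23, adjusted p = 0.509). The table lists 2 transcripts of Lifr with 1 count for both, and so does not separate the membrane receptor from the soluble form that mice also make.

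Il6ra and Il6st, the chains that IL-6 itself uses, did not pass the test in either tissue. Control iWAT held 26.4, 28.2, 31.9, 24.5 and 33.9 CPM of Il6ra and Ai-α4KO iWAT 26.9, 23.4, 34.7, 30.8 and 33.5. Control BAT held 4.96, 6.34, 10.4, 16.5 and 17.0 CPM and Ai-α4KO BAT 21.1, 27.7, 12.2, 11.3 and 7.17. The BAT libraries of both genotypes thus spread widely, with coefficients of variation of 50.6% and 52.5%, against 13.4% and 15.7% in iWAT. For Il6ra the iWAT log2 fold change was 0.04 (adjusted p = 0.833, edgeR), and it was 0.48 in BAT (standard error 0.41, adjusted p = 0.327). Il6st, the signal-transducing chain of the whole family, was at 175 to 221 CPM in Control and 186 to 272 in Ai-α4KO iWAT, and at 114 to 166 and 131 to 192 in BAT. Its log2 fold change was 0.11 in iWAT (standard error 0.12, adjusted p = 0.459, edgeR) and 0.16 in BAT (standard error 0.14, adjusted p = 0.332).

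The balance between OSMR and LIFR, the alternative partners of gp130, was compared within each library as the ratio of counts per kilobase of transcript, which no scaling between libraries can move. In BAT the ratio of Osmr to Lifr was 0.685, 0.538, 0.464, 0.292 and 0.531 in Control and 1.76, 1.71, 1.11, 0.835 and 1.15 in Ai-α4KO libraries. By the deposited transcript widths, Lifr was thus the more abundant chain in every Control BAT library, and Osmr in 4 of the 5 Ai-α4KO BAT libraries. Which chain is ahead rests on those widths, 10333 bases for Lifr and 4835 for Osmr, and no other width was tried. The difference between the genotypes does not depend on them. The mean difference was 1.38 on the log2 scale (exact permutation test, two-sided, p = 0.0079, 0.0318 adjusted over the 4 ratio tests), and 1.20 to 1.53 with any library left out. In iWAT the ratio was 0.686 to 1.11 in Control and 0.685 to 1.42 in Ai-α4KO libraries, a log2 difference of 0.31 (exact permutation test, p = 0.262, adjusted 0.519). The ratio of Il6ra to Il6st overlapped between the genotypes in both tissues, with log2 differences of -0.07 in iWAT and 0.34 in BAT (exact permutation test, p = 0.595 and p = 0.389, adjusted 0.595 and 0.519).

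**Figure D3:**
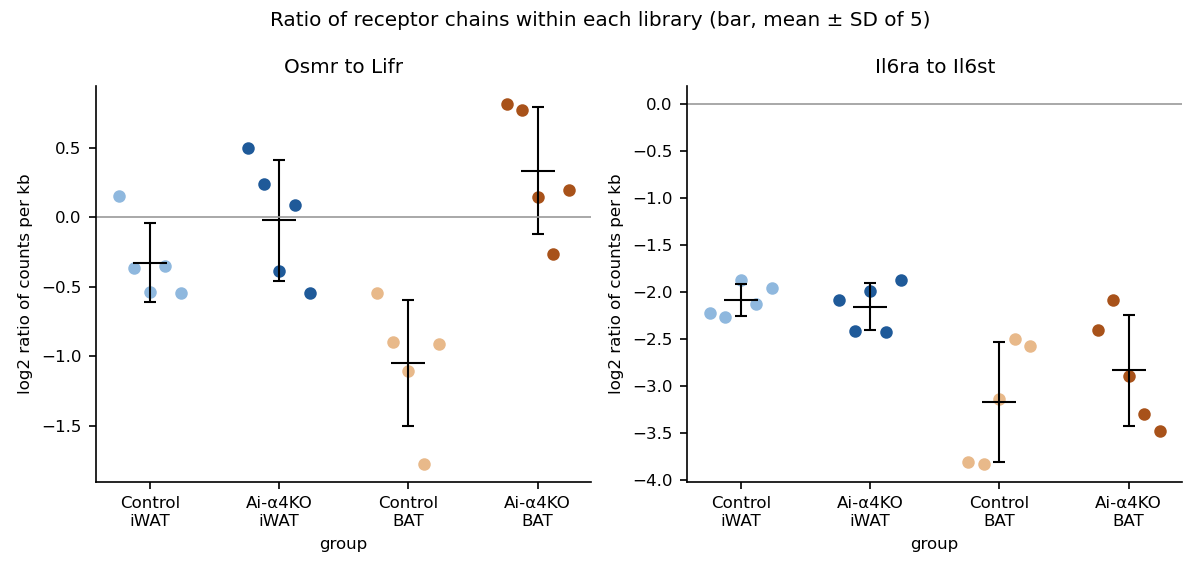
Log2 ratio of counts per kilobase for Osmr to Lifr (left) and Il6ra to Il6st (right) in each library (points), with mean and SD of 5 (bars). In BAT the Osmr to Lifr ratio lies below 0 in all Control libraries and above 0 in 4 of 5 Ai-α4KO libraries, while the other comparisons overlap.

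Socs3, the feedback inhibitor that binds gp130, rose in both tissues. Control iWAT held 17.4, 6.68, 10.9, 7.00 and 6.27 CPM of Socs3 and Ai-α4KO iWAT 67.3, 79.1, 69.6, 47.0 and 39.2. Control BAT held 4.10, 3.91, 1.41, 5.82 and 4.46 CPM and Ai-α4KO BAT 60.0, 90.6, 47.4, 70.4 and 61.0. The genotypes were far apart in both tissues, with Control iWAT library 1 high and Control BAT library 3 low within their groups. The log2 fold change was 2.64 in iWAT (standard error 0.32, adjusted p = 4.73e-05, edgeR) and 4.02 in BAT (standard error 0.31, adjusted p = 5.83e-07). The genes most like Socs3 over the 20 libraries were AF251705, LOC100038947, Sirpb1a, Msr1 and Fcgr4, at Pearson coefficients of 0.97 to 0.98, and those most like Lifr were Stxbp6, Tmem170b, Zfp26, Kctd12 and Smc3, at 0.86 to 0.87. Msr1 encodes a scavenger receptor and Fcgr4 an Fc receptor of myeloid cells.

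Socs3 lies at chr11:117966087-117969366 on the minus strand. Its promoter is shown because STAT3 is known to act on Socs3, and capitals mark the STAT letters TTCNNNGAA, which 7.02% of the RefSeq windows hold. The window is chr11:117969367-117969616 of GRCm38.p6, on the minus strand, directly before the start.
Socs3 promoter: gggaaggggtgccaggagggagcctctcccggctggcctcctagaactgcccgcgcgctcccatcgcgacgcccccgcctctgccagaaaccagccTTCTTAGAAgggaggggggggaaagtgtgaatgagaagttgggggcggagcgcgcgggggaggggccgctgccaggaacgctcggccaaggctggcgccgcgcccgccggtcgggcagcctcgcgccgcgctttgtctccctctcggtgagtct
The match, TTCTTAGAA, stands at -154 to -146. No other member had these letters in its window.

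Compared with one another per length, as CPM per kilobase of transcript, the members changed places. In Control iWAT Il6st led at 36.8 ± 3.37, followed by Lifr at 12.04 ± 2.33, Osmr at 9.52 ± 1.39 and Il6ra at 8.67 ± 1.16, and Il6 was last at 0.0554 ± 0.0505 (SD, n = 5 each). In Ai-α4KO iWAT Il6st was at 39.9 ± 6.11 and Il6 at 35.99 ± 15.99, ahead of Socs3 at 22.2 ± 6.11. The libraries' ranges of Il6st, Il6, Socs3, Lifr and Osmr overlapped from each to the next there, whereas in Control iWAT that of Il6st stood clear of Lifr. In BAT Il6 went from 0.0538 ± 0.0464, the last of 10, to 24.3 ± 8.71, next to Socs3 at 24.2 ± 5.89 and below Il6st at 30.7 ± 4.79 with overlapping ranges. In each group 6 of the 9 pairs of neighbors in the order overlapped. The ligands Lif, Osm, Clcf1 and Il11 stayed at or below 3.22 per kilobase in all 4 group means.

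**Figure D4:**
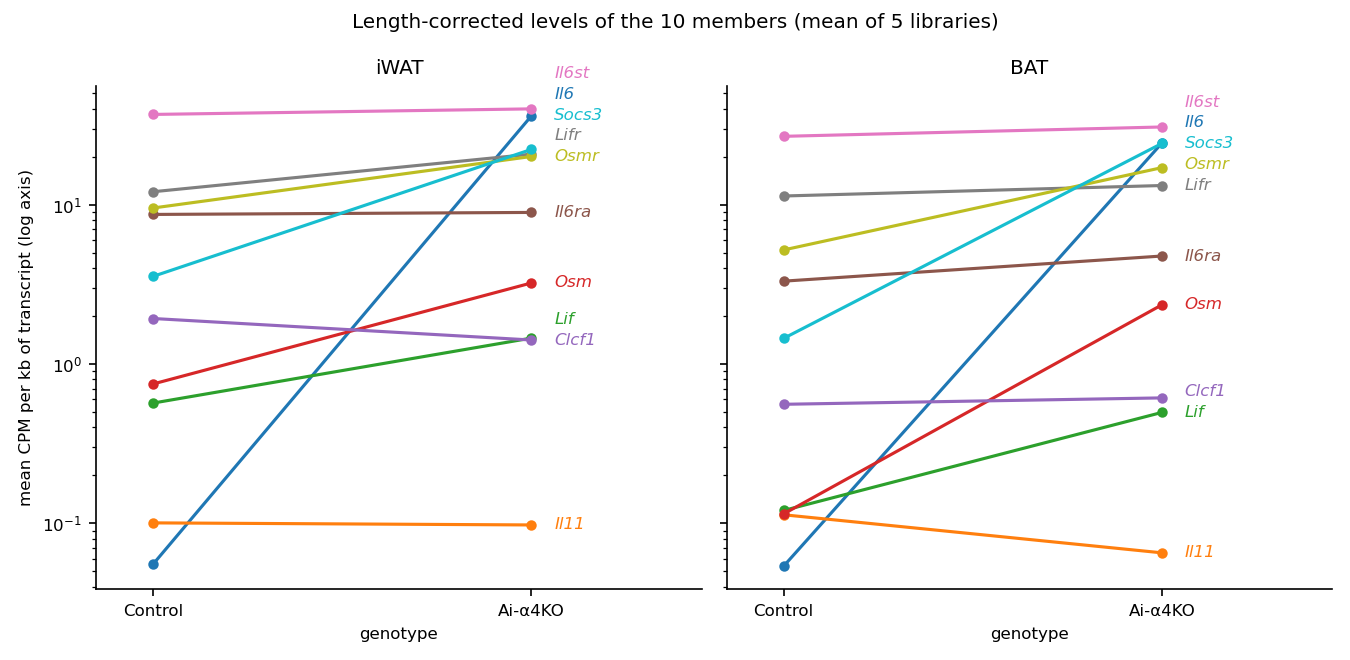
Mean CPM per kilobase of transcript on a log axis for the 10 members, from Control to Ai-α4KO, in iWAT (left) and BAT (right), each the mean of 5 libraries. Il6 climbs from last place to just below Il6st in both tissues, in iWAT from 0.0554 to 35.99 and in BAT from 0.0538 to 24.3.

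Osm and Socs3 had a larger genotype difference in BAT than in iWAT by DESeq2, and by edgeR at an adjusted p below 0.05 but not 0.01. Tested as an interaction in the fit of all 20 libraries, 0 of 9 members passed an adjusted p below 0.01, where 4.86% of 15230 genes did, and 2 passed 0.05, where 15.1% did. These were Osm, whose difference was 2.24 on the log2 scale (standard error 0.60, adjusted p = 0.0175, edgeR), and Socs3, at 1.41 (standard error 0.45, adjusted p = 0.0388). DESeq2 called both, 2 of 9 members, where it called 10.8% of genes. At an unadjusted p below 0.05 there were 3 members, Osmr (0.64, adjusted p = 0.0607, edgeR) being the other one. Without Control iWAT libraries 1 and 4 neither passed 0.05, with Osm at 1.37 (adjusted p = 0.0799, edgeR) and Socs3 at 1.24 (adjusted p = 0.0781). Over all alternatives the adjusted p ran from 0.00221 to 0.0799 for Osm and from 0.00829 to 0.0781 for Socs3. The fitted change of Il6 passed neither threshold (-0.55, standard error 1.0, adjusted p = 0.741, edgeR), an estimate that rests on the few Control counts.

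The tissues already differed in Control mice. In Control BAT against Control iWAT 4 of 9 members were lower, where 15.4% of genes were, and 0 were higher, where 7.34% were, also 0 by DESeq2 and at an unadjusted p below 0.05. These were Osm (log2 fold change -2.70, adjusted p = 8.17e-05, edgeR), Lif (-2.21, adjusted p = 0.00012), Il6ra (-1.39, adjusted p = 0.00188) and Socs3 (-1.29, adjusted p = 0.0027). The Socs3 call ended without Control iWAT library 1 (-0.96). Without both Control iWAT libraries with high B cell markers, 3 of 9 were lower, with Osm at -1.71 (adjusted p = 0.00174, edgeR) and Lif at -2.32. Macrophage markers, at 636 to 1190 CPM in Control iWAT and 187 to 299 in Control BAT, moved with these differences, and their part was not tested. In Ai-α4KO BAT against Ai-α4KO iWAT only Lif was called lower (-1.55, adjusted p = 0.00249, edgeR), 1 of 9 against 4.09% of genes, and 0 were higher against 8.54%, also 0 by DESeq2 and at an unadjusted p below 0.05. That call ended without Ai-α4KO iWAT library 2 (-1.27) or 5 (-1.34) or Ai-α4KO BAT library 3 (-1.41) or 5 (-1.37). Osm and Socs3 were at 6.15 and 60.4 CPM in Ai-α4KO iWAT and at 4.48 and 65.9 in Ai-α4KO BAT, and the depot comparison of Ai-α4KO fat shares its libraries with the genotype comparisons.

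Because adipocyte markers were lower and macrophage markers higher in Ai-α4KO fat, each member was also set against a marker list in its own library, as log2 CPM minus the mean log2 CPM of the list. The 4 receptor chains were compared with adipocyte markers and the ligands and Socs3 with macrophage markers, 20 comparisons in all. The adipocyte list itself differed between the genotypes by -1.64 in iWAT and -1.62 in BAT in mean log2 CPM, and the macrophage list by 1.94 and 3.28, so a member that stays level differs from its list by as much. Relative to adipocyte markers the 4 receptor chains differed by 1.68 (Il6ra) to 2.72 (Osmr) in iWAT and by 1.81 (Il6st) to 3.30 (Osmr) in BAT. For Il6ra and Il6st in iWAT, with log2 fold changes of 0.04 and 0.11, this is nearly all the fall of the list. Relative to macrophage markers Il6 was higher by 6.38 in iWAT and 4.54 in BAT (exact permutation test, adjusted p = 0.0113 each), sizes that depend on the prior count because Control held 0 to 5 counts (7.20 and 5.46 with a prior count of 0.5). Socs3 lay below the macrophage list in all 4 groups, and the gap was smaller in Ai-α4KO fat by 0.86 in BAT (exact permutation test, adjusted p = 0.0113) and by 0.77 in iWAT, where it did not pass (adjusted 0.0529). The iWAT value of Socs3 passed without Control iWAT library 1 or Ai-α4KO iWAT library 5 (exact permutation test, adjusted p = 0.0298 each). Osm differed from the macrophage list by 0.31 in iWAT (exact permutation test, adjusted p = 0.564) and 0.79 in BAT (adjusted 0.0467, and 0.0529 without any of Control BAT libraries 1, 2, 4 or 5 or Ai-α4KO BAT library 5). The difference of Lif was -1.10 in BAT (exact permutation test, adjusted p = 0.0212) and -0.64 in iWAT (adjusted 0.0585). The BAT value did not pass with a prior count of 0.5 (-0.97, adjusted 0.0835) or without Ai-α4KO BAT library 2 or 5 (adjusted 0.0529 each). The iWAT value of Lif passed without Ai-α4KO iWAT library 2 (-0.77, exact permutation test, adjusted p = 0.0467). The difference of Clcf1 was -3.66 in BAT (exact permutation test, adjusted p = 0.0113) and -2.02 in iWAT (adjusted 0.0397), close in size to the rise of the list. The iWAT value did not pass without any of Control iWAT libraries 1 or 4 or Ai-α4KO iWAT libraries 2, 3, 4 or 5 (adjusted 0.0529 to 0.084). Il11, at 1 to 11 counts, is not interpretable on this scale. Neutrophil markers (7 of 8 measured, 4 of 7 called higher in iWAT and 6 of 6 tested in BAT, with Ngp at 5.01 and 0.333 CPM in iWAT) summed to 19.9 to 118 CPM in Control and 146 to 494 in Ai-α4KO iWAT, and at 12.3 to 36.2 and 201 to 364 in BAT. Fibroblast and progenitor markers (7 of 7 measured, 3 called higher in BAT and 0 in iWAT) summed to 323 to 646 CPM in Control and 846 to 1069 in Ai-α4KO BAT, and overlapped in iWAT at 1187 to 2563 and 919 to 2518. T cell markers (5 of 7 called higher in BAT) were at 4.08 to 6.01 CPM in Control and 26.6 to 73.7 in Ai-α4KO BAT. Mast cell markers (5 of 6 called higher in BAT, and Kit lower, from 21.6 to 5.29 CPM) were at 29.4 to 61.98 and 82.8 to 131 CPM there. Endothelial markers (3 of 6 called lower in each tissue) were at 366 to 497 and 183 to 263 CPM in iWAT and at 689.6 to 993 and 269 to 363 in BAT. The part of these cells in the member levels was not tested.

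Other genes of the pathway were counted from 4 lists, written with earlier results of these data known, to be read against all genes tested. Of these, 11.3% (iWAT) and 18.2% (BAT) were called higher, and 10.7% and 13.3% lower. Of the other IL-6 family ligands and receptors, 8 of 12 were tested in iWAT, with 1 called higher and 2 lower, and 7 in BAT, with 3 higher and 1 lower. The list's median log2 fold change was 0.35 in iWAT and 0.86 in BAT. Ctf1, which encodes cardiotrophin-1, fell in iWAT from 8.01 to 0.928 CPM (log2 fold change -3.12, adjusted p = 2.97e-05, edgeR) and was at 9.92 and 5.17 in BAT, under the fold threshold. Cntfr, the receptor chain for CNTF and CLCF1, fell in both tissues, in iWAT from 4.27 to 1.68 CPM and in BAT from 14.2 to 3.31. Ebi3, the shared subunit of IL-27 and IL-35, rose in iWAT from 3.87 to 8.77 CPM and in BAT from 0.856 to 5.78. Il27ra, a receptor chain for IL-27 named after its values were seen, rose in BAT from 1.59 to 5.13 CPM. Il11ra1, the receptor chain for IL-11, was at 82.4 and 142 CPM in iWAT and at 51.2 and 95.3 in BAT, below 2-fold in each.

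Of 14 transducers, JAK-STAT and SHP2 genes, 0 were called in iWAT and 2 higher in BAT, where 18.2% of all genes were. Their median log2 fold change was 0.28 in iWAT and 0.24 in BAT. In iWAT 6 of the 14 were higher and 3 lower at an unadjusted p below 0.05 in edgeR. Jak2, named after its values were seen, was at 51.4 and 103 CPM in iWAT. Its log2 fold change of 0.996 (adjusted p = 0.000248, edgeR) was just under the fold threshold. DESeq2 called 0 in iWAT, and limma called 1 with a pseudocount of 1 and 2 with 0.1. The BAT calls were Stat3, from 92.4 to 210 CPM (log2 fold change 1.14, adjusted p = 6.84e-06, edgeR), and Grb2, an adaptor, from 50.5 to 120. In iWAT Stat3 was at 156 and 227 CPM (log2 fold change 0.53, adjusted p = 0.0052). Jak1, the main kinase of gp130, was at 236 and 330 CPM in iWAT and at 174 and 265 in BAT, with log2 fold changes of 0.48 and 0.57 below the fold threshold.

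Among 16 negative regulators and shedding enzymes 6 were called higher in iWAT (11.3% of all genes) and 4 in BAT, close to the 18.2% of all genes, and 0 were lower by edgeR, DESeq2 or limma (0 in iWAT and 3 in BAT at an unadjusted p below 0.05). Ptpn6, which encodes the phosphatase SHP-1 of blood cells, rose in iWAT from 36.6 to 111 CPM and in BAT from 4.95 to 68.3 (log2 fold change 1.59 and 3.74). Socs1 rose in BAT, from 0.368 to 2.28 CPM, and was at 1.47 and 3.02 in iWAT (adjusted p = 0.166, edgeR). Cish rose in iWAT, from 3.71 to 14.1 CPM, and was at 11.96 and 25.5 in BAT (adjusted p = 0.183). Ptpn1, a phosphatase that acts on JAK kinases, rose in both, from 48.5 to 109 and from 30.02 to 75.1 CPM. Adam17, a protease that sheds IL-6Rα, was the remaining gene called in BAT, named after its values were seen, and rose in iWAT from 56.2 to 138 CPM and in BAT from 53.1 to 116.

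Of 20 genes known to respond to STAT3, 14 were called higher in iWAT, where 11.3% of all genes were, and 15 in BAT, where 18.2% were. Another 2 were called lower in BAT, against 13.3% of all genes. The list was written with earlier results of these data known, so its share of calls is not a test of STAT3 activity. The genes lower in BAT, named after their values were seen, were Bcl6, a repressor (144 to 69.1 CPM), and Pim1, a kinase (126 to 62.8), and Pim1 was among those higher in iWAT (28.7 to 73.2). DESeq2 also called 2 lower in BAT, and limma called 0 with either pseudocount. The median log2 fold change of the list was 1.32 in iWAT and 1.46 in BAT. The largest changes were in Saa3, an acute-phase protein (9.16 to 1153 CPM in iWAT and 6.95 to 686 in BAT), Ccl2, a chemokine for monocytes (4.83 to 407 and 1.74 to 215), Lcn2, the iron-siderophore binding lipocalin (7.96 to 249 and 2.42 to 346), and Timp1, an inhibitor of matrix proteases (3.76 to 56.2 and 2.05 to 81.8). These genes also respond to other signals and are expressed by myeloid cells, whose markers rose in the same libraries; the part of either was not tested.

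**Figure D5:**
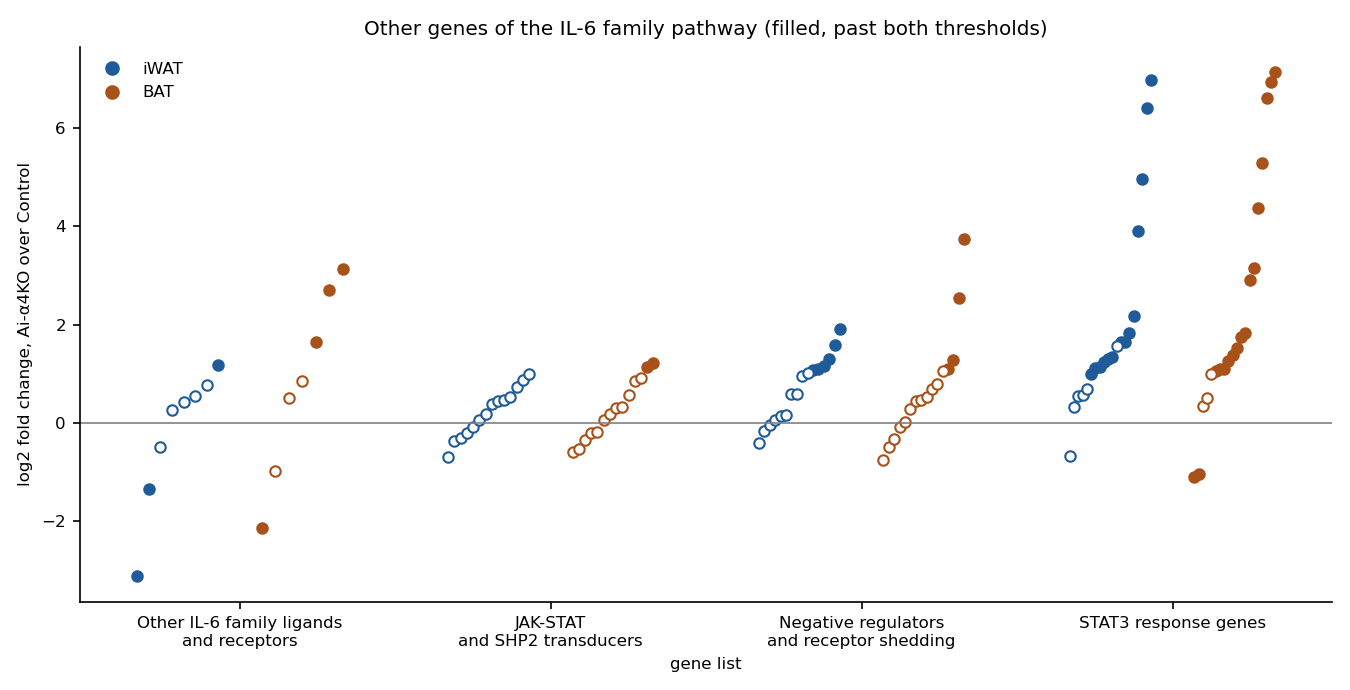
Log2 fold change of Ai-α4KO over Control for each tested gene of the 4 pathway lists (points, sorted within a list), in iWAT (blue) and BAT (brown); filled points passed an adjusted p below 0.01 and 2-fold. The transducers have 0 filled points in iWAT and 2 in BAT, and the STAT3 response genes 14 in iWAT and, in BAT, 15 above and 2 below 0.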

How the data were processed

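RNA-seq of iWAT and BAT gave 20 libraries. Per the labels, stranded mRNA libraries were aligned to mm10, and the submitters' processing notes name bcl2fastq 2 and STAR 2.5.3a; the counting tool, its strand setting and the annotation release are not given in the sources used here. The authors deposited expected counts per gene, of which 76.6% of the nonzero ones are whole, and FPKM values, the count divided by transcript width and library total.

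Expected counts were rounded, filtered by filterByExpr, normalized by TMM and tested by the quasi-likelihood test of edgeR 4.0.16 in R 4.3.3, within each tissue for genotype and over all 20 libraries for tissue and interaction, with Benjamini-Hochberg adjustment over all genes tested. Calls needed an adjusted p under 0.01 and a 2-fold difference (interaction, adjusted p only). Standard errors given with edgeR were derived, as the size of the log2 fold change over the square root of the F statistic. They are approximate, above all where Control held few counts. CPM came from TMM over all libraries; log2 CPM used a prior count of 2. Single values and within-library ratios (prior count 0.5) were tested by two-sided exact permutation over 252 arrangements. Library totals ran from 24023371 to 50384446 counts; counting intervals cover counting error only. Alternatives were DESeq2 1.42.0, limma 3.58.1 on log2(FPKM + 1) and log2(FPKM + 0.1), other scalings, filters and thresholds, a replicate block, marker-based alternatives and leaving out each library; leaving the libraries with high B cell markers out of the fit of both tissues, and those with high muscle markers out of iWAT, was chosen after seeing the data. The test code was run on simulated data first. The members and gene lists were chosen with earlier results of these data known. Named genes are the members, Igbp1, up to 4 genes of each pathway list with the largest mean change among those called, 4 preset pathway genes, and the 5 genes most like Il6, Lifr and Socs3. Promoter windows came from the RefSeq table of GRCm38.p6. Adgre1 and Ly6g, 2 listed markers, were not matched by symbol. The values of 1 further gene of the pathway lists are not reported here.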

Additional observations from a re-analysis of the deposited data

Results flagged for a closer look

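Within 48 sets of 5 libraries (each member and each receptor ratio in each group), 1 library stood apart from the other four in 4 sets, where the gap to its neighbor exceeded 0.71 of the range, Dixon's 95% critical value for 5 samples; chance gives about 5% of sets. In Control BAT, Il11 of library 1 was highest at -0.83 log2 CPM (0.501 CPM), on 11 counts. In Control BAT, Lifr of library 4 was highest at 7.69 log2 CPM (207 CPM). In Control BAT, Socs3 of library 3 was lowest at 0.55 log2 CPM (1.41 CPM). In Control iWAT, the log2 ratio of Osmr to Lifr was highest in library 1, at 0.16 (a ratio of 1.11). Without Control BAT library 4 the Lifr log2 fold change in BAT was 0.49 (adjusted p = 0.00743, edgeR, below 2-fold), and without Control BAT library 3 that of Socs3 was 3.8.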

How the results depend on the processing

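Among counts of members called and receptor ratios, 374 values under an alternative kept their direction and side of the threshold or, for counts, stayed within 1.5 times the reported count, and 8 counts moved. Ratios that passed no threshold still varied with single libraries left out, Osmr to Lifr in iWAT from 0.18 to 0.44 and Il6ra to Il6st from -0.14 to -0.003 in iWAT and 0.15 to 0.50 in BAT. The 5 members higher in iWAT became 3 without the Control iWAT libraries with high B cell markers, and the 5 in BAT became 2 with at least 10 counts in every library, a filter that drops Il6, Lif and Osm by its construction. The interaction count of 0 became 2 at an adjusted p below 0.05 and 2 with DESeq2. With single libraries left out, the 1 member lower in Ai-α4KO BAT than in Ai-α4KO iWAT ranged from 0 to 1. Other than for that filter, the cause was not tested. Among values of single members, 1296 kept their direction and side of the threshold, 27 lost and 9 gained a call, and 26 changed sign. Every value that changed sign passed no threshold before or after, and its cause was not tested. In iWAT these were Clcf1 at 0.0173 by limma on log2(FPKM + 0.1), 1.02 without the libraries with high B cell markers and -1.03 to 0.41 with single libraries left out; Il6ra at -0.0619 under upper-quartile normalization, -0.15 without those libraries and -0.0609 to 0.12 with single libraries left out; and Il6st at -0.0269 without those libraries. In BAT they were Clcf1 at -0.0885 by limma on log2(FPKM + 0.1) and -0.15 to 0.41 with single libraries left out, and, with the muscle score, Il6st at -0.0292 and Lifr at -0.0665. Between tissues they were the Clcf1 interaction (-0.21 to 1.27 with single libraries left out and -0.84 without the libraries with high B cell markers) and, in Control, Il6 (-0.51 to 0.64) and Lifr (-0.40 to 0.0091). Over all genes, scaling by library totals alone turned the interaction calls from 496 higher and 244 lower to 604 and 115, and the Control tissue calls from 1118 and 2346 to 756 and 2861.

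Replicate numbers are shared between groups, but same-numbered libraries did not consistently deviate together. Their correlations ran from -0.451 to 0.134 between the iWAT groups and from -0.147 to 0.215 between the BAT groups, where 0 and 1 of 5 libraries correlated best with their own number. Across tissues they ran from -0.0808 to 0.221 in Control and from -0.265 to 0.244 in Ai-α4KO, where 2 of 5 libraries in each correlated best with their own number. With a replicate block 5 members stayed higher in iWAT and 5 in BAT, while Clcf1 in BAT was -0.16 and Il6 between the Control tissues 0.0073. Over all genes the block gave 1584 higher and 1461 lower in iWAT and 2509 and 1834 in BAT. Depth limited Il11 and the Control levels of Il6 and of Osm in BAT, at no more than 11 counts a library.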
